A study of Homo sapiens with 60 samples.

Results

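The genes described here are the 3 transforming growth factor beta (TGF-beta) ligands TGFB1, TGFB2 and TGFB3, and 5 genes known as targets of that pathway: ACTA2, TAGLN, CNN1, TGFBI and LTBP2. They were found by matching these symbols to the Ensembl IDs of the expected-count table, which gave 8 of 60675 genes, and all 8 passed the filter on low counts. RNA was sequenced from SW1783 cells, an established human astrocytoma line, 24 h after a herbal extract or a vehicle was added. The hot-water extracts came at 20, 100 and 500 µg/mL, called the low, medium and high dose. They were Citri Unshius Pericarpium (a dried mandarin peel), Cimicifugae Rhizoma, Bupleuri Radix, Aconiti Lateralis Radix Preparata (aconite root after processing), and the formulas Yijung-tang, Banhasasim-tang and Bojungikgi-tang. The first 6 had 3 libraries per dose and are shortened to Citri, Cimicifugae, Bupleuri, Aconiti, Yijung and Banhasasim. The vehicle, given in its labels as 0.1% DMSO, had 3 libraries, whereas each dose of Bojungikgi-tang had a single one. All groups are the same line, kept in L-15 medium with serum, and no label names added TGF-beta. The sample codes form 5 sets: the vehicle, Citri with Cimicifugae, Bupleuri with Aconiti, Yijung with Banhasasim, and Bojungikgi-tang. The labels do not say what a set is or whether the extract libraries held DMSO. Against the vehicle, extract, code set and DMSO therefore cannot be told apart, whereas the doses of 1 extract share a set.

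TGF-beta ligands are secreted in a latent form that latent TGF-beta binding proteins hold in the matrix, and integrins and proteases release it. The active ligand brings a pair of receptor kinases together, these phosphorylate SMAD2 and SMAD3, and the SMAD proteins then act with SMAD4 in the nucleus at short DNA elements. Smooth muscle actin, transgelin and calponin are the classical contractile genes of this response in fibroblasts, and serum response factor (SRF) with its MRTF or myocardin partners drives the same genes when actin polymerises. In astrocytes and gliomas the pathway is known for its part in reactivity, invasion and immune suppression.

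Total expected counts ranged from 18.9 to 36.4 M per library. The label of the line was checked against its markers: 6 of 11 glial markers had a median of at least 1 CPM (counts scaled to the normalised library total), among them GJA1 (239 CPM) and SOX9 (69.3 CPM), but the defining astrocyte filament GFAP never exceeded 0.258 CPM and AQP4 was at 0 in 49 of 57 libraries. Of 6 smooth muscle markers, 3 reached 1 CPM, with ACTG2 highest at 3.91 CPM and DES at 0 in 22 libraries, while the collagen gene COL1A1 had a median of 3214 CPM. All 6 fibroblast and all 3 pericyte markers had a median of at least 1 CPM, among them THY1 (402 CPM) and CSPG4 (187 CPM). So did 3 of 4 neuron, 3 of 4 microglia and macrophage, and 1 of 4 endothelial markers. Replicate 3 of low-dose Citri and replicate 3 of high-dose Cimicifugae stood apart from their groups by their mitochondrial share, 7.37% and 7.69%. Replicate 1 of high-dose Yijung also had a higher share, 8.21%, than the other libraries of its group, 6.58% and 5.94%. Without it, each of the 8 genes kept its side of the threshold for high-dose Yijung against either the vehicle or low-dose Yijung. In bulk RNA, fewer cells with a transcript and less of it per cell cannot be told apart.

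The start regions of ACTA2 and TGFB3 are shown because ACTA2 fell with the most extracts and TGFB3 fell furthest. Each sequence is the 250 bases before a transcript start in RefSeq (GRCh38.p14), on the gene's strand, and capitals mark matches to CAGAC, a short SMAD-binding element, or to CATTCC, the TEAD-binding element, on either strand (GTCTG and GGAATG are the same motifs on the other strand). ACTA2 has 2 such starts, at chr10:88991338-88991587 and chr10:88952774-88953023, and the TGFB3 start shown lies at chr14:75983012-75983261, all on the minus strand.
ACTA2 start 1: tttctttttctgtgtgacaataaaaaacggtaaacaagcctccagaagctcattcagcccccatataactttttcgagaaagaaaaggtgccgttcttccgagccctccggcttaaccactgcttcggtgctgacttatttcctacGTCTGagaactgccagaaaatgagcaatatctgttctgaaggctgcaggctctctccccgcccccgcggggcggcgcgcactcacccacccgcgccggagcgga
ACTA2 start 2: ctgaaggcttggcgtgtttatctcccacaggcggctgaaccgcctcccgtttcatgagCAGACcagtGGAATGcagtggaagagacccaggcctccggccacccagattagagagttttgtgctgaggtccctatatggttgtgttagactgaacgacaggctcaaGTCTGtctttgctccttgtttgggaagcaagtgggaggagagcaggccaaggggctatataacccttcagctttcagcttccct
TGFB3 start 1: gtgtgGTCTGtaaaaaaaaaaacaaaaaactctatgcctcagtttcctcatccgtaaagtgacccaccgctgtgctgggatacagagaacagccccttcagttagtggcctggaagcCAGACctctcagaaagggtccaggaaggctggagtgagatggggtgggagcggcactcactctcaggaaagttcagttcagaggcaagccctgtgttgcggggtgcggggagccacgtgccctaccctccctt
Windows of 250 bases before and 50 after the start were at hand for 7 of the 8 genes, 9 windows in all, with TAGLN not among them. CAGAC was present in 45.3% and CATTCC in 14.0% of all 35116 such RefSeq windows. In ACTA2, CAGAC was found 104 bases before start 1 on the opposite strand, and 192 bases (same strand) and 84 bases (opposite strand) before start 2, where CATTCC lay 183 bases upstream on the opposite strand. Before start 1 of TGFB3, CAGAC lay 133 bases upstream on the same strand and 245 bases upstream on the opposite strand. TGFB2, CNN1 and LTBP2 also held CAGAC, while TGFB1, TGFBI and start 2 of TGFB3 held neither motif. Exact matches to the consensus of the CArG box, the SRF-binding element, were in 1.29% of all windows and in none of these 9. Matches with a mismatch were not searched, and the ACTA2 promoter is known to hold CArG elements. These matches describe the letters only.

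In GENCODE 29 on GRCh38, TGFB1 (ENSG00000105329) lies at chr19:41301587-41353911 (minus strand), TGFB2 (ENSG00000092969) at chr1:218346235-218444619 (plus strand) and TGFB3 (ENSG00000119699) at chr14:75958099-75982991 (minus strand). ACTA2 (ENSG00000107796) lies at chr10:88935074-88991339 (minus strand), TAGLN (ENSG00000149591) at chr11:117199321-117204782 (plus strand) and CNN1 (ENSG00000130176) at chr19:11538717-11550323 (plus strand). TGFBI (ENSG00000120708) lies at chr5:136028895-136063818 (plus strand) and LTBP2 (ENSG00000119681) at chr14:74498170-74612378 (minus strand). All 8 are protein-coding. Levels in the vehicle differed widely between the genes per kilobase of exon. TGFBI, a secreted matrix protein that binds integrins, had 560 CPM per kilobase. TGFB1 had 128, against 5.17 for TGFB2 and 4.18 for TGFB3, so it was the most abundant ligand transcript. Among the contractile genes TAGLN had 64.0, ACTA2 28.9 and CNN1 0.729 CPM per kilobase, and LTBP2, a matrix protein of the latent TGF-beta binding family, had 4.66. CNN1 was the least precisely measured, with 26 to 91 expected counts per library, and TGFBI had at least 60729.

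At the high dose the 8 genes fell or stayed below the threshold, and none rose against the vehicle. ACTA2 fell with all 6 replicated extracts. TGFB3, TAGLN and TGFBI each fell with 5, TGFB2 with 3, LTBP2 with 2 and TGFB1 with Aconiti only, while CNN1 was not called with any. Of the 48 gene-by-extract results, 27 were called (edgeR's quasi-likelihood test, Benjamini-Hochberg adjusted p under 0.05), against 28.4% of all genes over the same 6 comparisons. Genes called lower made up 11.8% of all genes with Citri, 17.5% with Cimicifugae, 4.01% with Bupleuri, 28.9% with Aconiti, 16.7% with Yijung and 8.82% with Banhasasim. The median log2 fold change of the 8 genes lay between -0.32 with Aconiti and -0.09 with Bupleuri, where that of all genes was within 0.01 of 0. All 6 comparisons share the 3 vehicle libraries, and the labels do not say that replicates were separate cultures, so p-values measure the spread between libraries, which may be technical.

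TGFB3, the ligand best known from palate closure and heart development, had 2.99, 2.38 and 2.64 CPM with high-dose Aconiti, against 21.9, 19.2 and 20.4 CPM in the vehicle. The 3 Aconiti libraries lay far below every other library of the series. The fall was 7.73-fold (log2 fold change -2.95 ± 0.097 SE, 95% interval -3.14 to -2.76, n = 3 each, edgeR adjusted p = 1.11e-30). With the other extracts the falls were smaller. TGFB3 averaged 14.4 ± 0.577 CPM with Cimicifugae, 14.9 ± 0.887 with Bupleuri, 15.9 ± 1.21 with Citri and 16.0 ± 0.801 with Banhasasim, against 20.5 ± 1.37 CPM in the vehicle (SD, n = 3 each). These are log2 fold changes of -0.51 ± 0.068, -0.47 ± 0.068, -0.37 ± 0.067 and -0.36 ± 0.066 (SE, edgeR adjusted p at most 6.06e-05), and no library of the 4 groups overlapped the vehicle. Yijung did not give a call for TGFB3, with 19.6 ± 0.749 CPM inside the vehicle's range and a log2 fold change of -0.07 (95% interval -0.20 to 0.06).

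TGFB2, a ligand prominent in gliomas, had 17.3, 16.1 and 17.3 CPM with high-dose Aconiti, against 25.9, 26.4 and 27.6 CPM in the vehicle. The groups were well apart, with a log2 fold change of -0.66 ± 0.070 (SE, n = 3 each, edgeR adjusted p = 1.22e-11). Cimicifugae gave 20.7, 18.2 and 23.1 CPM (-0.36 ± 0.066, edgeR adjusted p = 2.27e-05) and Citri 22.0, 23.6 and 24.6 CPM (-0.18 ± 0.065, edgeR adjusted p = 0.0366). All libraries of both groups lay below the vehicle, but the Citri call was lost without any single vehicle library, without high-dose Citri replicate 1 or 2, with no filter on low counts and in DESeq2, another count test (adjusted p up to 0.21). TGFB1, the main ligand in most tissues, had 319.6, 309.8 and 351 CPM with Aconiti, against 373, 425 and 448 CPM in the vehicle. That was its only call, with a log2 fold change of -0.35 ± 0.069 (SE, n = 3 each, edgeR adjusted p = 2.17e-05) and no overlap. With the other 5 extracts TGFB1 had log2 fold changes of -0.12 to 0.16 and was not called. Its highest estimates, 0.16 with Yijung (edgeR adjusted p = 0.0578) and 0.15 with Citri (edgeR adjusted p = 0.109), were called as rises in 7 and 6 of 13 alternatives, among them the fits without vehicle replicate 3, with no filter and with only the compared groups fitted.

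ACTA2 encodes smooth muscle alpha actin, the defining myofibroblast gene, and its falls were the most widespread. Aconiti gave 43.0, 43.2 and 49.6 CPM, against 83.9, 86.5 and 87.7 CPM in the vehicle. The groups lay far apart and the fall was 1.9-fold (log2 fold change -0.92 ± 0.066 SE, n = 3 each, edgeR adjusted p = 2.23e-17). Banhasasim gave 45.8, 52.3 and 48.1 CPM (-0.82 ± 0.063), Cimicifugae 49.0, 44.4 and 55.2 CPM (-0.79 ± 0.064) and Yijung 50.8, 53.4 and 56.1 CPM (-0.69 ± 0.064). Citri had 56.1, 59.6 and 62.0 CPM, with a log2 fold change of -0.54 ± 0.063. These 4 falls had edgeR adjusted p-values of at most 4.04e-09 and no library reached the vehicle's lowest. The smallest was that of Bupleuri, with 74.3, 69.7 and 76.3 CPM and a log2 fold change of -0.23 ± 0.062 (edgeR adjusted p = 0.0135). Its libraries also lay below the vehicle, but its call was lost without vehicle replicate 2 or 3 or high-dose Bupleuri replicate 2 (adjusted p up to 0.11).

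TAGLN encodes transgelin, which binds and bundles actin filaments. It had 193, 187 and 192 CPM with Citri and 197, 173 and 204 CPM with Cimicifugae, against 250, 249 and 253 CPM in the vehicle, and both log2 fold changes were -0.39 ± 0.051 (SE, n = 3 each, edgeR adjusted p at most 5.01e-08). With Aconiti it had 207, 209 and 202 CPM (-0.28 ± 0.051, edgeR adjusted p = 4.36e-06). Yijung gave -0.21 ± 0.051 (edgeR adjusted p = 0.00142) and Banhasasim -0.18 ± 0.051 (edgeR adjusted p = 0.00927), and in all 5 groups every library lay below the vehicle. The Banhasasim call was lost without high-dose Banhasasim replicate 2. Bupleuri overlapped the vehicle, with 249, 233 and 249.9 CPM and a log2 fold change of -0.04 (95% interval -0.14 to 0.06). Aconiti thus had the lowest mean for ACTA2, where its libraries overlapped those of Banhasasim and Cimicifugae, and Citri and Cimicifugae had the lowest for TAGLN. CNN1 encodes calponin, which inhibits actomyosin, and ranged from 1.34 to 3.19 CPM over all 57 libraries. Its most negative estimate was with Yijung (1.46, 1.67 and 1.41 CPM, against 1.71, 1.9 and 2.71 CPM in the vehicle, log2 fold change -0.46 ± 0.20 SE, edgeR adjusted p = 0.0652).

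**Figure D1:**
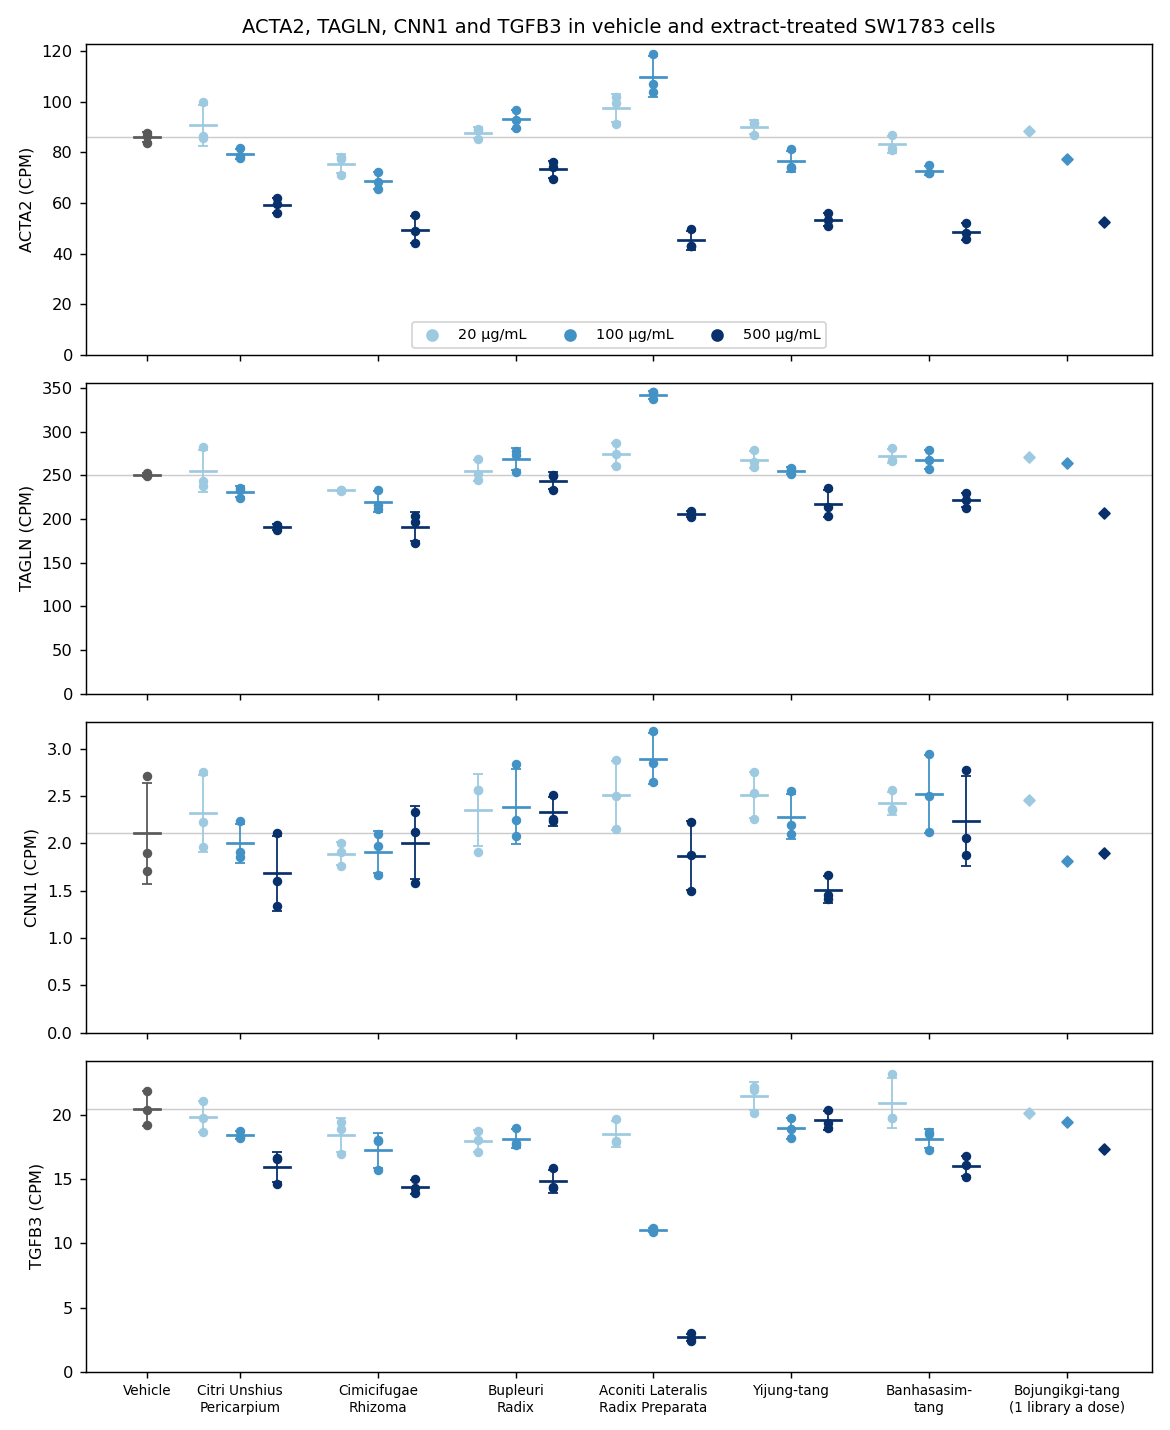
Level of ACTA2, TAGLN, CNN1 and TGFB3 in CPM (y axes) in each group by extract and dose (x axis), with a point per library and bars for the mean ± SD of 3 libraries, and diamonds for the single Bojungikgi-tang libraries. The high-dose ACTA2 means lie between 45.3 and 73.4 CPM, all under the vehicle mean of 86.0 CPM, and TGFB3 drops to 2.67 CPM with high-dose Aconiti.

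TGFBI and LTBP2 moved by small amounts. TGFBI had 3494, 3577 and 3638 CPM with high-dose Aconiti, against 4326, 4429.7 and 4366 CPM in the vehicle, a log2 fold change of -0.29 ± 0.027 (SE, n = 3 each, edgeR adjusted p = 2.61e-13). Its other 4 falls had log2 fold changes between -0.15 and -0.11, and their libraries did not overlap the vehicle. The Cimicifugae call was lost when only the compared groups were fitted, and the Bupleuri call with no filter on low counts. LTBP2 had 36.8, 32.0 and 35.9 CPM with Aconiti, against 42.3, 43.9 and 40.9 CPM in the vehicle (-0.28 ± 0.061, edgeR adjusted p = 6.51e-05). With Banhasasim it had 36.8, 38.2 and 38.2 CPM (-0.17 ± 0.059, edgeR adjusted p = 0.0384), and that call was lost without vehicle replicate 1 or 2, without any of the 3 Banhasasim libraries and with no filter on low counts.

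**Figure D2:**
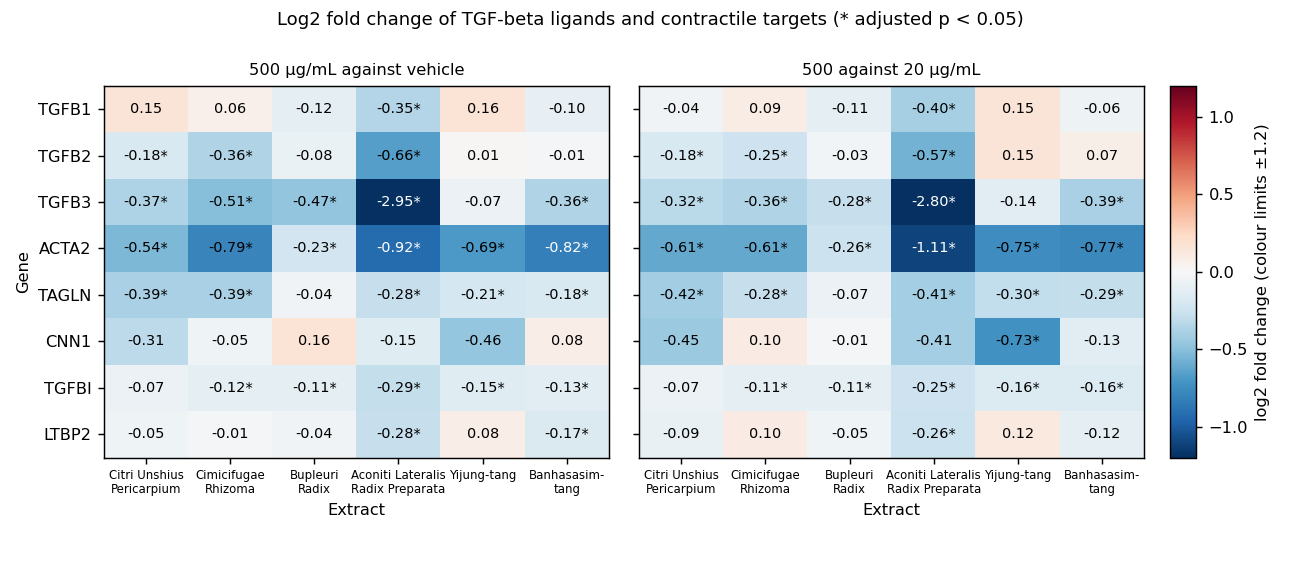
Log2 fold change of the 8 genes (rows) with each extract (columns) at 500 µg/mL against the vehicle and at 500 against 20 µg/mL, with an asterisk where the adjusted p was under 0.05. Every called value is negative, from -2.95 for TGFB3 with Aconiti to small falls of TGFBI.

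The high dose against the low dose of the same extract is the comparison within a code set, and here too no member rose. Of 48 results 27 were called, all of them falls, against 22.3% of all genes over these 6 comparisons. For 26 of the 27 the libraries did not overlap, and the share of all called genes without overlap is not given here. ACTA2 fell with all 6 extracts. Its high-dose means were 45.3 ± 3.79 CPM with Aconiti and 97.6 ± 5.5 CPM at its low dose, a 2.15-fold difference (log2 fold change -1.11 ± 0.065 SE, n = 3 each, edgeR adjusted p = 2.51e-20). Banhasasim followed at -0.77 ± 0.062, Yijung at -0.75 ± 0.062, Citri and Cimicifugae at -0.61 (SE 0.062 and 0.064) and Bupleuri at -0.26 ± 0.061 (edgeR adjusted p = 0.00564). The Bupleuri call was lost without high-dose replicate 2.

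TAGLN fell with the same 5 extracts as against the vehicle, with log2 fold changes of -0.42 (Citri), -0.41 (Aconiti), -0.30 (Yijung), -0.29 (Banhasasim) and -0.28 (Cimicifugae). CNN1 was called once, with Yijung, which had 1.46, 1.67 and 1.41 CPM at the high dose and 2.75, 2.26 and 2.53 CPM at the low dose. The libraries did not overlap, and the log2 fold change was -0.73 ± 0.18 (SE, n = 3 each, edgeR adjusted p = 0.00228). For CNN1, Citri (-0.45 ± 0.18) and Aconiti (-0.41 ± 0.19) missed the threshold with edgeR adjusted p-values of 0.0819 and 0.0532.

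Among the ligands, TGFB3 had 2.67 ± 0.309 CPM at the high and 18.5 ± 1.02 CPM at the low dose of Aconiti (log2 fold change -2.80 ± 0.099 SE, n = 3 each, edgeR adjusted p = 2.53e-29). It also fell with Banhasasim (-0.39), Cimicifugae (-0.36), Citri (-0.32) and Bupleuri (-0.28 ± 0.069, edgeR adjusted p = 0.00736). The Bupleuri call was lost without high-dose replicate 1 or 2 or low-dose replicate 2. TGFB2 fell with Aconiti (-0.57 ± 0.070), Cimicifugae (-0.25 ± 0.066) and Citri (-0.18 ± 0.064, edgeR adjusted p = 0.0383). The Citri groups overlapped, with 22.0, 23.6 and 24.6 CPM at the high and 24.5, 26.0 and 29.5 CPM at the low dose, and that call was lost without high-dose replicate 1 or 2 or low-dose replicate 3, with no filter and with the compared groups alone. The Cimicifugae call was lost without high-dose replicate 2 and with the compared groups alone. TGFB1 and LTBP2 fell with Aconiti only (-0.40 ± 0.069 and -0.26 ± 0.061). TGFBI fell with 5 extracts, from -0.25 with Aconiti to -0.11 with Cimicifugae and Bupleuri, and the Bupleuri call was lost without high-dose replicate 1 or 2 or low-dose replicate 3 and with no filter, the Cimicifugae call with the compared groups alone.

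The low and medium doses moved few of these genes. At the low dose no result of 48 was called by edgeR or DESeq2, 10 had an unadjusted p under 0.05, and 2.93% of all gene tests were called. DESeq2 gave no adjusted p for CNN1 with low-dose Citri, Cimicifugae, Yijung or Banhasasim. At the medium dose 10 of 48 were called, against 9.14% of all gene tests, and 6 of the 10 were with Aconiti. With medium-dose Cimicifugae, ACTA2 had 65.7, 68.4 and 72.3 CPM, against 83.9, 86.5 and 87.7 CPM in the vehicle, without overlap (log2 fold change -0.32 ± 0.062 SE, edgeR adjusted p = 0.000452). TGFB3 (-0.25 ± 0.066, edgeR adjusted p = 0.0134) and TAGLN (-0.19 ± 0.051, edgeR adjusted p = 0.0153) fell there too, where 3.92% of all genes were called lower. The TGFB3 call was lost without vehicle replicate 1 or medium-dose Cimicifugae replicate 3, and the TAGLN call without vehicle replicate 1 or 3 or medium-dose replicate 1 or 2. With medium-dose Banhasasim, ACTA2 alone fell, to 71.8, 71.7 and 75.0 CPM (-0.24 ± 0.061, edgeR adjusted p = 0.00794), where 4.52% of all genes were called lower. Between medium and low dose, 5 of 48 results were called against 3.57% of all gene tests, all 5 with Aconiti. Between high and medium dose, a comparison added after the values had been seen, 26 of 48 were called, all falls, against 15.3% of all gene tests. Of these 26, 9 lost their call under at least 1 alternative, none of them with Aconiti. Leaving out a single library ended the calls of TGFB3 with Citri and Bupleuri, TGFB2 and TAGLN with Cimicifugae, CNN1 with Yijung and TGFBI with Banhasasim.

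Aconiti was the extract with which members moved in both directions. At its medium dose ACTA2, TAGLN, CNN1 and LTBP2 rose against the vehicle, while TGFB3 and TGFBI fell, and at its high dose ACTA2, TAGLN and LTBP2 lay below the vehicle. Genes called higher and lower at the medium dose made up 16.1% and 15.0% of all genes. TAGLN had 345, 337 and 345 CPM at the medium dose, against 250, 249 and 253 CPM in the vehicle, and these were the 3 highest libraries of the 57. The log2 fold change was 0.45 ± 0.051 (SE, n = 3 each, edgeR adjusted p = 5.14e-10). ACTA2 had 104, 119 and 107 CPM (0.35 ± 0.061, edgeR adjusted p = 7.1e-06), all above the vehicle. LTBP2 had 50.1, 49.1 and 47.3 CPM, against 42.3, 43.9 and 40.9 CPM in the vehicle, also without overlap (0.20 ± 0.059, edgeR adjusted p = 0.00618). CNN1 overlapped the vehicle, with 3.19, 2.85 and 2.65 CPM (0.46 ± 0.18, edgeR adjusted p = 0.0425), and its call was lost without vehicle or medium-dose replicate 1 or 2, with no filter, with the compared groups alone and in DESeq2. TGFB3, in contrast, had 11.2, 10.9 and 11.1 CPM at the medium dose, against 21.9, 19.2 and 20.4 CPM in the vehicle (-0.89 ± 0.073, edgeR adjusted p = 3.96e-14).

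Within the Aconiti doses, medium against low gave rises of TAGLN (0.32 ± 0.050), LTBP2 (0.23 ± 0.059) and ACTA2 (0.17 ± 0.060, edgeR adjusted p = 0.0367) and falls of TGFB3 (-0.74 ± 0.075) and TGFBI (-0.07 ± 0.027, edgeR adjusted p = 0.047). Of all genes, 10.9% were called higher and 9.5% lower. The ACTA2 call was lost without low-dose replicate 1 or 2 or medium-dose replicate 2, and the TGFBI call without any medium-dose library, without low-dose replicate 1 or 2, with no filter and with the compared groups alone. All 8 genes then fell at the high against the medium dose, the comparison added later, where 22.3% of all genes were called lower. TGFB3 fell furthest (-2.06 ± 0.11), then ACTA2 (-1.28 ± 0.065), TAGLN (-0.73 ± 0.051), TGFB2 (-0.66 ± 0.070), CNN1 (-0.61 ± 0.18), LTBP2 (-0.49 ± 0.060), TGFB1 (-0.27 ± 0.069) and TGFBI (-0.18 ± 0.027), with edgeR adjusted p-values of at most 0.0044 and n = 3 each. No member's libraries overlapped between those doses, and the share of all genes without overlap is not given here. TGFB3, TGFBI and TGFB1 had successively lower means from low to high dose, with TGFB1 at 432, 395 and 327 CPM. ACTA2, TAGLN, CNN1, LTBP2 and TGFB2 had their highest mean at the medium dose, with TGFB2 at 25.1, 26.7 and 16.9 CPM.

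**Figure D3:**
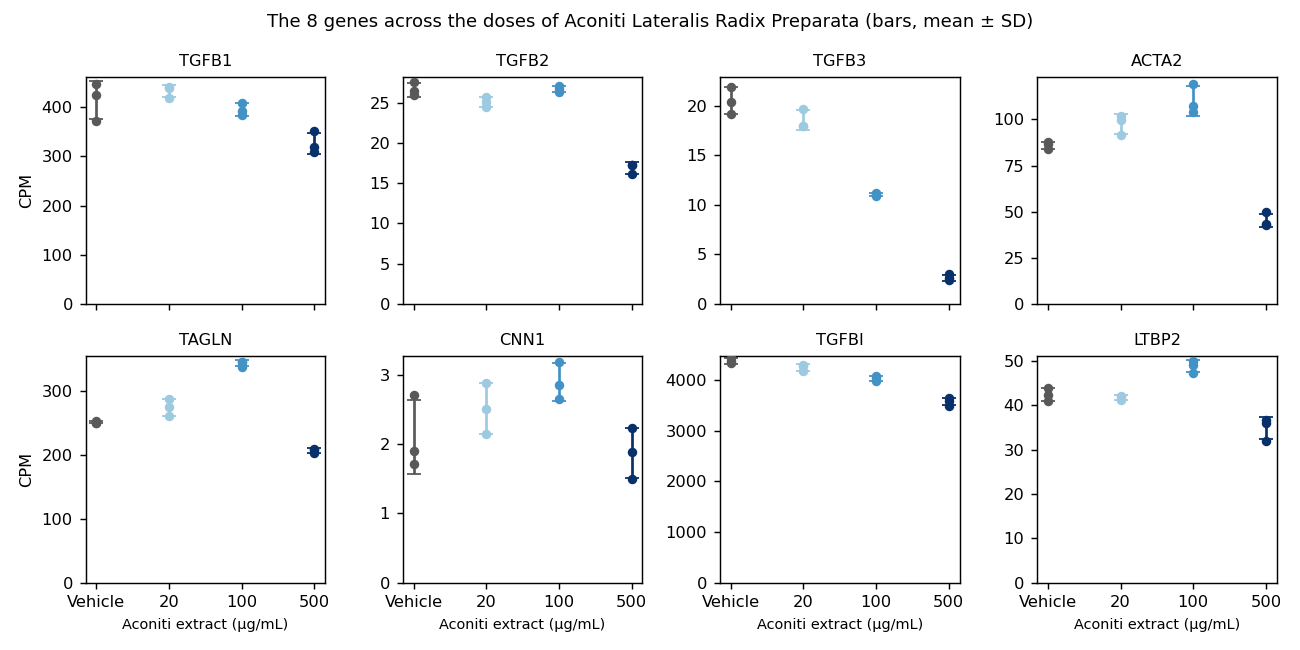
Level in CPM (y axes) of each of the 8 genes in the vehicle and at 20, 100 and 500 µg/mL of the Aconiti extract (x axes), with a point per library and bars for mean ± SD. TAGLN peaks at 342 CPM and ACTA2 at 109.7 CPM at the medium dose, while TGFB3 means step down from 18.5 to 11.1 and 2.67 CPM.

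Other measures moved with the Aconiti doses. The mitochondrial share of counts was 6.45 to 7.56% at the low, 10.6 to 10.8% at the medium and 8.99 to 9.29% at the high dose, against 5.03 to 5.29% in the vehicle. The summed level of the 6 smooth muscle markers was 8.96 to 10.7 CPM at the low, 10.2 to 11.5 at the medium and 6.9 to 7.19 at the high dose, against 9.31 to 10.6 CPM in the vehicle. The 6 fibroblast markers summed to 5410 to 5848 CPM at the low, 4336 to 4680.5 at the medium and 1657 to 1774 at the high dose, against 5956 to 6177 CPM in the vehicle. Most of that sum is collagen, with vehicle means of 3406 CPM for COL1A1 and 2149 CPM for COL1A2. The 3 pericyte markers summed to 208 to 209 CPM at the high dose, against 267 to 280.3 CPM in the vehicle. The neuron markers summed to 52.1 to 54.7 CPM there, against 70.8 to 73.4 CPM in the vehicle. Other marker sums were higher at the high dose than in the vehicle. They were 7766 to 7823 against 7337 to 7705 CPM for glia, and 30.7 to 33.5 against 28.2 to 29.7 CPM for endothelium. For microglia and macrophages they were 196 to 209.7 against 155 to 163 CPM. Most of the glial sum is VIM and CD44, with vehicle means of 4344 and 2796 CPM. Likewise CD68 (141 CPM) makes up most of the microglia and macrophage sum, and KDR (28.1 CPM) most of the endothelial sum. These 3 sums therefore say little about the other markers of their lists. The part of these measures in the members' values was not tested.

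Extracts of the same code set were compared at the high dose, in 24 results of which 12 were called. Aconiti against Bupleuri gave 7 of them, all lower with Aconiti, where 58.3% of all genes were called. TGFB3 had 2.99, 2.38 and 2.64 CPM with Aconiti and 14.3, 14.4 and 15.9 CPM with Bupleuri, a log2 fold change of -2.48 ± 0.10 (SE, n = 3 each, edgeR adjusted p = 8.93e-27). ACTA2 followed at -0.70 ± 0.066 and TGFB2 at -0.58 ± 0.069, and TGFB1, TAGLN, TGFBI and LTBP2 lay between -0.25 and -0.18. Only CNN1 was not called (-0.31, 95% interval -0.67 to 0.05).

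Yijung and Banhasasim differed in 4 genes, where 23.8% of all genes were called. TGFB3 was higher with Yijung, at 19.6 ± 0.749 CPM, against 16.0 ± 0.801 CPM with Banhasasim (SD) (0.29 ± 0.066, edgeR adjusted p = 0.00078). TGFB1 (0.27 ± 0.068, edgeR adjusted p = 0.00248) and LTBP2 (0.25 ± 0.058, edgeR adjusted p = 0.000761) were higher too, all 3 without overlap. CNN1 was lower with Yijung (-0.54 ± 0.19, edgeR adjusted p = 0.0271), and this call was lost without Yijung replicate 1 or 3 or Banhasasim replicate 3, with no filter, with the compared groups alone and in DESeq2. ACTA2 did not pass the threshold between them (0.13, 95% interval 0.01 to 0.26, edgeR adjusted p = 0.137). Between Citri and Cimicifugae ACTA2 was called, where 12.3% of all genes were: 56.1, 59.6 and 62.0 CPM with Citri and 49.0, 44.4 and 55.2 CPM with Cimicifugae (0.26 ± 0.065, edgeR adjusted p = 0.00507). That call was lost without Citri replicate 3 or Cimicifugae replicate 2 and with the compared groups alone. Without Cimicifugae replicate 3, which stood apart, TGFB2 and TGFB1 were called higher with Citri as well, and TGFB2 also without Citri replicate 1 and with a replicate block within the code set. Over all alternatives, DESeq2 among them, the TGFB2 log2 fold change ran from 0.10 to 0.27 (edgeR or DESeq2 adjusted p from 0.00572 to 0.374). That of TGFB1 ran from 0.01 to 0.21 (edgeR or DESeq2 adjusted p from 0.0124 to 0.966).

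The high-against-low differences were then compared between the extracts of a set, which tests whether the dose response itself differed. Between Aconiti and Bupleuri 7 of 8 genes differed, where 44.0% of all genes did. The difference of log2 fold changes was -2.52 ± 0.12 for TGFB3 (SE, edgeR adjusted p = 8.43e-23), -0.85 ± 0.089 for ACTA2 and -0.54 ± 0.095 for TGFB2. It was -0.34 ± 0.072 for TAGLN, -0.29 ± 0.097 for TGFB1, -0.14 ± 0.039 for TGFBI and -0.21 ± 0.084 for LTBP2 (edgeR adjusted p = 0.0431). The LTBP2 call was lost with no filter and without any of 6 single libraries: high-dose replicate 1 and low-dose replicates 1 and 3 of Bupleuri, and high-dose replicate 2 and low-dose replicates 2 and 3 of Aconiti. Between Citri and Cimicifugae, and between Yijung and Banhasasim, none of the 8 genes was called by edgeR or DESeq2, where 11.1% and 10.1% of all genes were, and 2 and 4 of the 8 had an unadjusted p under 0.05. Between Citri and Cimicifugae, DESeq2 gave no adjusted p for CNN1. For Yijung minus Banhasasim, LTBP2 lay close to the threshold (0.24 ± 0.081, edgeR adjusted p = 0.0535) and was called in 6 of 19 alternatives, and TGFB3 (0.25 ± 0.090, edgeR adjusted p = 0.0668) in 4. Both were called with either replicate block and without low-dose Banhasasim replicate 2, LTBP2 also without low-dose Yijung replicate 1, high-dose Yijung replicate 2 or the Citri and Cimicifugae libraries that stood apart, and TGFB3 without low-dose Banhasasim replicate 3. TGFB1 was called there with no filter and with the compared groups alone, and for Citri minus Cimicifugae LTBP2 and TAGLN were called without high-dose Cimicifugae replicate 2. For ACTA2 these differences were -0.00 (95% interval -0.18 to 0.17) and 0.02 (95% interval -0.15 to 0.19). The same test on medium against low, added after the values had been seen, called 3 genes between Aconiti and Bupleuri, where 9.56% of all genes were called: TGFB3 (-0.76 ± 0.10), LTBP2 (0.26 ± 0.083) and TAGLN (0.25 ± 0.071). The TAGLN call was lost without low-dose replicate 1 or medium-dose replicate 3 of Bupleuri or low-dose replicate 2 of Aconiti, and the LTBP2 call without any of 8 single libraries, replicate 1 or 2 of low- or medium-dose Aconiti and replicate 2 or 3 of low- or medium-dose Bupleuri.

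**Figure D4:**
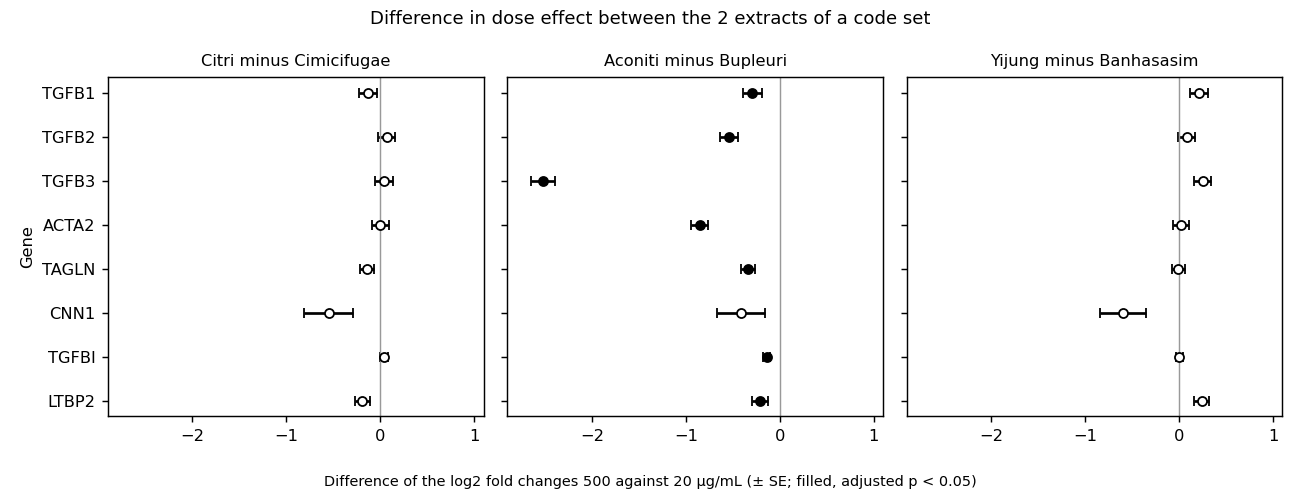
Difference between the extracts of a code set in the log2 fold change of high against low dose (x axis, ± SE) for each of the 8 genes (rows), with filled points where the adjusted p was under 0.05. Values for Aconiti minus Bupleuri reach -2.52 for TGFB3 and -0.85 for ACTA2, while no point is filled in the other pairs.

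Bojungikgi-tang, with 1 library per dose, has no replicate check. Its ACTA2 level was 88.5, 77.4 and 52.5 CPM at the low, medium and high dose, TAGLN 271, 264 and 207 CPM, and TGFB3 20.2, 19.5 and 17.4 CPM. The high-dose values of ACTA2 and TAGLN lie inside the range of the high-dose libraries of the other 6 extracts, and below all 3 vehicle libraries.

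Over the 19 replicated groups, ACTA2 ranged from 109.7 CPM with medium-dose Aconiti to 45.3 CPM with high-dose Aconiti, and the vehicle ranked 7 of 19 from the top. Only 3 of its 18 neighbouring pairs in that order had libraries that did not overlap: medium above low Aconiti, medium Cimicifugae above high Citri, and high Citri above high Yijung. For TGFB3, the neighbours that did not overlap were high Cimicifugae above medium Aconiti and medium Aconiti above high Aconiti. TAGLN had its highest mean with medium-dose Aconiti (342 CPM) and its lowest with high-dose Citri (191 CPM), and CNN1 had no neighbours without overlap. TGFB1 was highest with low-dose Citri (473 CPM), a mean that includes the library that stood apart with 538 CPM, and lowest with high-dose Aconiti (327 CPM).

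The list of contractile and actin-binding genes held 24 tested genes. At the high against the low dose, 16 of the 24 fell with Aconiti, 15 with Citri, 15 with Cimicifugae, 14 with Yijung, 12 with Banhasasim and 4 with Bupleuri, and at most 2 rose with any extract. The share of all genes called lower in these comparisons was 27.4% with Aconiti, 10.0% with Citri, 13.5% with Cimicifugae, 11.5% with Yijung, 3.58% with Banhasasim and 2.45% with Bupleuri. The share called higher was 30.4% with Aconiti, 8.19% with Citri, 11.7% with Cimicifugae, 10.2% with Yijung, 3.08% with Banhasasim and 1.92% with Bupleuri. The list's median log2 fold change ran from -0.26 with Aconiti to -0.06 with Bupleuri. TPM1, a tropomyosin that stabilises actin filaments, had 396 ± 9.9 CPM at the high and 632 ± 20.4 CPM at the low dose of Cimicifugae (-0.68 ± 0.033 SE, n = 3 each, edgeR adjusted p = 4.99e-22). ACTG2, smooth muscle gamma actin, fell with Aconiti (-0.86 ± 0.16) and Yijung (-0.50 ± 0.14), LMOD1, an actin filament nucleator, with Banhasasim (-0.64 ± 0.17), PDLIM7, an actin-associated scaffold, with Citri (-0.42 ± 0.069), and CALD1, caldesmon, with Bupleuri (-0.18 ± 0.029). With medium-dose Aconiti against the vehicle, 9 of the 24 rose and 3 fell, where 16.1% of all genes were called higher and 15.0% lower.

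**Figure D5:**
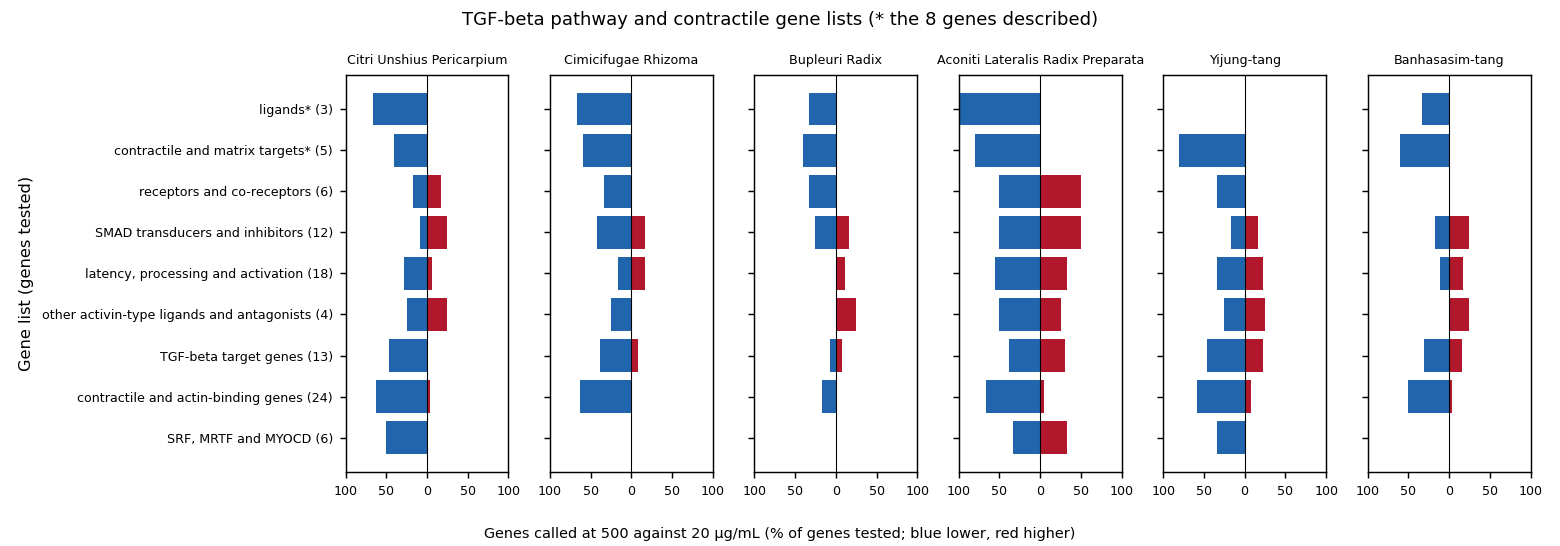
Share of the tested genes of each list (rows) called higher (red, right of 0) and lower (blue, left of 0) at 500 against 20 µg/mL (x axes, percent), with a panel per extract. The contractile list has more genes called lower than higher with all 6 extracts, while the receptor and SMAD lists are split evenly with Aconiti.

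Aconiti moved every tested receptor and SMAD gene, in both directions: 3 of 6 receptors and 6 of 12 SMAD transducers and inhibitors rose, and as many fell, where 30.4% of all genes were called higher and 27.4% lower. ENG, the TGF-beta co-receptor endoglin, had 136 ± 5.87 CPM at the high and 289 ± 1.39 CPM at the low dose (-1.09 ± 0.061). TGIF1, a repressor of SMAD transcription, had 155 ± 2.33 and 29.2 ± 1.59 CPM (2.41 ± 0.053), and it also rose with Yijung (0.34 ± 0.055) and Banhasasim (0.31 ± 0.054). PMEPA1, a TGF-beta-induced inhibitor of SMAD signalling, fell with Citri (-0.41 ± 0.034), and SMAD7, the inhibitory SMAD, fell with Cimicifugae (-0.54 ± 0.066) and Bupleuri (-0.28 ± 0.066). BMPR2, a type II receptor for bone morphogenetic proteins, fell with Cimicifugae (-0.15 ± 0.040), ENG with Bupleuri (-0.20 ± 0.058) and TGFBR3, betaglycan, with Yijung (-0.28 ± 0.097). With the 5 other extracts at most 2 receptors fell and at most 1 rose. Of all genes, between 2.45% (Bupleuri) and 13.5% (Cimicifugae) were called lower there, and between 1.92% (Bupleuri) and 11.7% (Cimicifugae) higher. Of the 12 SMAD genes, some were called with one sign against both low dose and vehicle. They numbered 7 with Cimicifugae, 4 with Banhasasim, 3 each with Bupleuri and Yijung and 2 with Citri. High against low dose alone called 25.1%, 6.67%, 4.37%, 21.7% and 18.2% of all genes with these extracts. The share of all genes with both calls is not given here.

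Of the 18 genes of latency, processing and activation, 10 fell and 6 rose with Aconiti, where 27.4% of all genes were called lower and 30.4% higher. Genes called with one sign against both low dose and vehicle numbered 10 with Yijung, 4 with Cimicifugae, 3 each with Citri and Banhasasim and 1 with Bupleuri. High against low dose alone called 21.7%, 25.1%, 18.2%, 6.67% and 4.37% of all genes with these extracts. The share of all genes with both calls is not given here. ITGB8, the integrin subunit that activates latent TGF-beta, had 14.3 ± 0.826 CPM at the high and 66.9 ± 6.8 CPM at the low dose of Aconiti (-2.23 ± 0.078 SE, n = 3 each, edgeR adjusted p = 1.58e-29), and it fell with Yijung (-0.63 ± 0.063) and Citri (-0.37 ± 0.062). LTBP4, a latent TGF-beta binding protein, rose with Cimicifugae (0.54 ± 0.088), THBS1, thrombospondin, rose with Bupleuri (0.24 ± 0.039), and DCN, the TGF-beta-binding proteoglycan decorin, fell with Banhasasim (-0.32 ± 0.073). Among 4 tested genes of the activin branch, INHBA, the activin A subunit, rose with Banhasasim (0.77 ± 0.046) and Yijung (0.55 ± 0.046). FST, the activin antagonist follistatin, rose with Aconiti (1.89 ± 0.21), and its relative FSTL3 fell with Cimicifugae (-0.30 ± 0.042) and Citri (-0.28 ± 0.042).

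The 13 tested TGF-beta target genes did not share a direction. Between 1 and 6 fell and between 0 and 4 rose with each extract, where between 2.45% and 27.4% of all genes were called lower and between 1.92% and 30.4% higher, with medians from -0.14 with Citri to 0.04 with Banhasasim. COL1A1, the main chain of type I collagen, had 823 ± 34.1 CPM at the high and 3191 ± 146 CPM at the low dose of Aconiti (-1.96 ± 0.045 SE, n = 3 each, edgeR adjusted p = 6.29e-37). CCN2, connective tissue growth factor, fell with Cimicifugae (-0.55 ± 0.062) and Banhasasim (-0.37 ± 0.059), and BHLHE40 rose with Yijung (0.32 ± 0.050). Of the 6 genes of SRF and its partners, MRTFA, an actin-sensing SRF coactivator, fell with Aconiti (-0.81 ± 0.056) and Yijung (-0.18 ± 0.052). ZYX, the focal adhesion protein zyxin, fell with Citri (-0.54 ± 0.083). Genes called with one sign against both low dose and vehicle numbered 4 with Aconiti, 3 with Citri and 1 with Yijung. None of the 6 had both calls with Cimicifugae, Bupleuri or Banhasasim. High against low dose called 57.8% of all genes with Aconiti, 18.2% with Citri and 21.7% with Yijung. It called 25.1% with Cimicifugae, 4.37% with Bupleuri and 6.67% with Banhasasim. These shares need only that call, in either direction, and the share of all genes with both calls is not given here.

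The genes most like each member were sought by Pearson's r of group mean log2 CPM over the 19 groups, among 11109 genes of at least 5 CPM. The groups share extracts and depth, so r is a description. ACTA2 ran with CERKL, MYL9 (myosin regulatory light chain) and CALD1, each at r = 0.92, and without high-dose Aconiti r was 0.90, 0.96 and 0.89. TAGLN ran with SDC1, PDLIM7 and ACTB (beta actin), each at 0.93, and CNN1 with NRAV (0.89), PDLIM7 (0.88) and ALKBH8 (0.86). Without high-dose Aconiti these were 0.94, 0.92 and 0.95 for TAGLN and 0.90, 0.87 and 0.85 for CNN1. TGFB3 ran with COL8A1, TUBB3 and GLI2, each at 0.99, falling to 0.94, 0.91 and 0.89 over 18 groups without high-dose Aconiti. TGFB1 ran with PODNL1, LTBP1 (both 0.94) and PTPRS (0.92), and TGFB2 with TUBB6 (0.93), TNFRSF10D (0.91) and RBMS1 (0.90). Without high-dose Aconiti these were 0.89, 0.88 and 0.88 for TGFB1, and 0.76, 0.77 and 0.67 for TGFB2. TGFBI had EPHA3 at 0.95 (0.90 without that group), and LTBP2 had DCHS1 at 0.82 (0.70 without that group). Among the members, ACTA2 with TAGLN had r = 0.85 with or without high-dose Aconiti, while TGFB2 with TGFB3 had 0.81 with it and 0.18 without it.

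Genes that share sequence or position with the members limit what their counts mean, since it is not known here whether strand was used in counting, and estimated counts divide reads between near-identical copies. ACTA2 is overlapped on the other strand by ACTA2-AS1, STAMBPL1 and FAS. ACTA2-AS1 had 0.536 CPM with high-dose and 1.39 CPM with medium-dose Aconiti, against 0.655 CPM in the vehicle. With Aconiti against the vehicle, it was called at the medium dose only (1.08 ± 0.27, edgeR adjusted p = 0.00128). At the high against the low dose ACTA2-AS1 was called lower with Yijung (-1.08 ± 0.27), Aconiti (-1.05 ± 0.29), Cimicifugae (-0.86 ± 0.28) and Banhasasim (-0.80 ± 0.25). It was not called there with Citri (-0.48) or Bupleuri (-0.35). TAGLN is overlapped by PCSK7, which fell with high-dose (-0.49) and medium-dose (-0.20) Aconiti, and TGFB3 by IFT43, which was not called with either (0.06 and 0.04). TGFB1 is overlapped on the other strand by CCDC97, HNRNPUL1 and TMEM91. With high-dose Aconiti CCDC97 fell to 21.0 CPM, against 28.8 CPM in the vehicle (-0.45), HNRNPUL1 fell to 305 CPM, against 344 CPM (-0.18), and TMEM91 rose to 3.89 CPM, against 1.81 CPM (1.11). None of these 3 was called at the medium dose. The cytoplasmic actins were far more abundant than ACTA2: ACTB had 7505 CPM and ACTG1 3712 CPM in the vehicle. With Aconiti, ACTB fell at the high dose (-0.45) and rose at the medium dose (0.21), and ACTG1 likewise (-0.12 and 0.42). At the high dose against the vehicle, ACTG1 also fell with Yijung (-0.62), Cimicifugae (-0.60), Citri (-0.44) and Banhasasim (-0.24). ACTB also fell there with Cimicifugae (-0.37), Citri (-0.31) and Yijung (-0.24), but was not called with Banhasasim (-0.09). Neither gene was called with Bupleuri (both -0.01). How many ACTA2 reads could also match these genes was not tested.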

How the data were processed

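Total RNA of SW1783 cells was made into directional libraries and sequenced in 100-base pairs on an MGI instrument, per the labels' protocols. The authors deposited RSEM expected counts (estimated counts, 9.22% of them not whole) for 60675 genes in 60 libraries, and the submitters' processing notes list FastQC 0.11.9, Trim Galore 0.6.5, STAR 2.7.3a, RSEM 1.3.3 and hg38/GRCh38. No source used here gives the strand setting or the annotation. Expected counts were rounded, and genes were filtered with edgeR's filterByExpr over 57 libraries, which left 17190. CPM used TMM-scaled library sizes. A quasi-likelihood fit in edgeR 4.0.16 (R 4.3.3, limma 3.58.1) over 19 groups gave each contrast, with p-values adjusted by Benjamini-Hochberg over all genes and called under 0.05. SE is the absolute log2 fold change divided by the square root of F. The Bojungikgi-tang libraries entered no test. The steps were tested on simulated data.

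The 8 genes, the pathway lists and the tests were chosen with earlier results of these data known. Pathway genes were named as those with the largest high-against-low change among genes called with one sign against both low dose and vehicle, and 3 like genes were taken per member. Of the genes this rule names, 1 is not reported here. Alternatives were DESeq2 1.42.0, DESeq2 size factors, no filter, a fit of the compared groups alone, a replicate block, and leaving out libraries. Replicates differed by more than counting noise (chi-square per degree of freedom 1.74 to 21.9). The vehicle is 0.1% DMSO in the labels and 2% in the design text. Of the gene IDs, 41209 had a symbol, and gene positions are from GENCODE 29.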

Additional observations from a re-analysis of the deposited data

Results flagged for a closer look

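The 10 results here differed between 2 extracts of 1 code set by a test of the difference itself, all between Aconiti and Bupleuri. Of all genes, 44.0% were called in that test of high against low dose and 9.56% in that of medium against low. For high against low dose, the log2 fold change with Aconiti minus that with Bupleuri was -2.52 for TGFB3, -0.85 for ACTA2, -0.54 for TGFB2, -0.34 for TAGLN, -0.29 for TGFB1, -0.21 for LTBP2 and -0.14 for TGFBI. For medium against low dose, a comparison added after the values had been seen, it was -0.76 for TGFB3, 0.25 for TAGLN and 0.26 for LTBP2. TAGLN and LTBP2 thus changed sign between these comparisons, but the LTBP2 call of high against low was lost in 7 of 19 alternatives. The TAGLN difference of medium against low lost its call without low-dose replicate 1 or medium-dose replicate 3 of Bupleuri or low-dose replicate 2 of Aconiti, and that of LTBP2 without replicate 1 or 2 of low- or medium-dose Aconiti or replicate 2 or 3 of low- or medium-dose Bupleuri.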

How the results depend on the processing

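No called value changed sign under any alternative; sign changes of values called in neither setting were counted as the same. DESeq2 size factors changed no call among 360 results for single genes. DESeq2 gained 3 and lost 4, no filter gained 14 and lost 11, the compared groups alone gained 16 and lost 14, and leaving out the Citri and Cimicifugae libraries that stood apart gained 13 and lost 1. With DESeq2, 336 kept their side of the threshold, and the rest, CNN1 results among them, had no adjusted p to compare. With 1 library left out, 24 results gained and 86 lost a call, and 2338 kept their side of the threshold. For the low dose against the vehicle the count of called members was 0, but 3 with no filter, 4 with the compared groups alone and 1 without the libraries that stood apart. For medium against low dose it was 5, and 8 with no filter. With 1 library left out, the counts ran from 24 to 28 (high against vehicle), 7 to 10 (medium against vehicle), 0 to 1 (low against vehicle, the 1 being TGFB1 without low-dose Citri replicate 2), 24 to 28 (high against low), 3 to 5 (medium against low), 11 to 14 (extract against extract) and 6 to 9 (difference of differences).

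Replicate numbers mostly did not pair the libraries: 1 of 45 pairs of groups within a code set, and 0 of 126 others, had correlated deviations over 0.1 throughout (median 0.016 within a set). That pair was low-dose Citri with high-dose Cimicifugae, the groups whose replicate 3 stood apart, with r of 0.161, 0.193 and 0.431 for replicates 1, 2 and 3. With a replicate block by number, or within code set, the low-dose count was 1 or 2, high against vehicle 30 in both and the difference of differences 9 in both, and the block gained 12 or 14 single-gene calls and lost none.

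Counts over all genes moved more. With the compared groups alone, 18 of 45 moved by over 1.5 times, for example to 2866 genes from 5592 for high-dose Cimicifugae against the vehicle, to 1063 from 3135 for Citri high against low, and to 128 from 1913 for the Citri minus Cimicifugae difference of differences. DESeq2 moved 4, no filter 11, and leaving out the libraries that stood apart 13. Depth limits CNN1 most. The cause of these shifts was not tested.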
